A study of Homo sapiens with 6 samples.

Results

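The genes described here are 41 human genes of double-strand break and Fanconi repair, chosen by name from 4 roles: homologous recombination (15 genes), break sensing and checkpoint signalling (9), the Fanconi pathway (10) and end joining (7). All 41 were found among the 32192 genes of the deposited count table, and all 41 were among the 16971 genes with enough counts to be tested. They were measured by RNA-seq in A549, an established cell line derived from a human lung adenocarcinoma. Of the 6 libraries, 3 came from cells transfected with pIRES-hrGFP-1a carrying full-length APEX1 cDNA fused to a FLAG tag (APEX1-OE), and 3 came from cells given the control vector (Ctrl). Cells of both groups were grown in the same medium with fetal bovine serum and penicillin, and transfection was transient, so that a library is an average over cells that took up the plasmid and cells that did not. The labels do not say whether the 3 libraries of a group came from separate cultures, so p-values measure the spread between libraries, which may be technical. In such bulk RNA, fewer cells expressing a gene and less of its RNA per cell cannot be told apart.

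A DNA double-strand break is recognised by the MRE11A-RAD50-NBN complex and by the Ku heterodimer of XRCC5 and XRCC6, and the kinases ATM, ATR and PRKDC signal its presence. Ends are either ligated directly, by end joining, or resected and copied from a sister chromatid, by homologous recombination, which needs BRCA1, PALB2 and BRCA2. The Fanconi proteins act on crosslinks between the DNA strands: a core complex ubiquitinates FANCD2 and FANCI, and the lesion is then handed to nucleases and to homologous recombination. APEX1 itself cuts DNA at abasic sites in base excision repair, a separate pathway that deals with single damaged bases.

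Sequence just upstream of a start site is shown first for 4 genes on which the results below turn: BRCA2 and ATR, whose exons are low in GC, and H2AFX and XRCC3, whose exons are high in GC. Each run is the last 150 bases before the start in the RefSeq promoter table (build GRCh38.p14), written 5′ to 3′ on the strand of the gene. The gene spans given below come from another annotation and start further upstream for BRCA2 and XRCC3. The BRCA2 run lies within its span, and the XRCC3 run lies partly within its own. Capitals mark CGGAAG, the core bound by ETS factors, or CCAAT, the core bound by NF-Y, on either strand (CTTCCG and ATTGG on the other).
BRCA2, chr13:32315358-32315507, plus strand: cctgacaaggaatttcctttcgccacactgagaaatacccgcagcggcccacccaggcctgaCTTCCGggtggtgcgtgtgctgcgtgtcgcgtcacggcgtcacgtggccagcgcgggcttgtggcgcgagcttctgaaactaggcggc
ATR, chr3:142578734-142578883, minus strand: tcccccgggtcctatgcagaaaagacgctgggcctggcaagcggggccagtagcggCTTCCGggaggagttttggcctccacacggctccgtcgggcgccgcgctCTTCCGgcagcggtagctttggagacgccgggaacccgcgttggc
H2AFX, chr11:119095466-119095615, minus strand: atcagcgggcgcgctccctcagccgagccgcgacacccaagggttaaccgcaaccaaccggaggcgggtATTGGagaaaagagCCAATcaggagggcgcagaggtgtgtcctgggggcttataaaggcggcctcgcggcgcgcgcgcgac
XRCC3, chr14:103715452-103715601, minus strand: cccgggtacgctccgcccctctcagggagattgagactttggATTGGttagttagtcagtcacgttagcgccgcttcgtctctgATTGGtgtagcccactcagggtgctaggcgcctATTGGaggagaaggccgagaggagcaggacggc
The BRCA2 run holds 1 ETS core and the ATR run holds 2, without CCAAT in either. The H2AFX run holds 2 CCAAT boxes and the XRCC3 run 3, without an ETS core. All 4 runs are rich in GC, from 59.3% for XRCC3 to 69.3% for ATR, although the exons of BRCA2 and ATR are 36.9% and 36.1% GC. Over the 36 of 41 repair genes with a promoter in the table (250 bases before to 50 after the first listed start), CGGAAG was found on either strand in 20, or 55.6%, against 31.5% of 10693 promoters of tested genes and 19.9% of all 27305. CCAAT was found in 17 (47.2%, against 36.1% of tested genes and 35.7% of all) and the GC box GGGCGG in 26 (72.2%, against 69.1% and 44.6%). The E2F letters TTTCGCGC or TTTGGCGC were found in 2, FANCC and XRCC6 (5.56%, against 1.87% and 1.18%). The split between the 4 genes shown did not hold throughout their GC classes in this window. Of the genes with low-GC exons, FANCL and XRCC2 held CGGAAG alone. ATM, MRE11A, BRIP1 and XRCC4 held both cores, FANCM held CCAAT alone, and BARD1 and FANCB held neither. Of those with high-GC exons, FANCA and RAD54L held CCAAT alone, and FANCG, FANCE and RAD52 held neither. All these are matches of letters in a window and not sites shown to be bound.

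The 6 libraries held 28131955 to 41009197 counts, of which the 41 genes together took 28044 to 58186 counts, or 0.0967% to 0.146% of a library. The smallest count of any of them was 12 (FANCB in APEX1-OE 1) and the largest 14136 (PRKDC in APEX1-OE 2). The libraries formed 2 sets along the first principal component of log2 CPM (CPM, counts scaled to a common library size with edgeR's TMM factors), which held 72.6% of the variance. Set A held APEX1-OE 1, Ctrl 1 and Ctrl 2, and set B held APEX1-OE 2, APEX1-OE 3 and Ctrl 3. The sets cross the groups and are read from the same counts. The labels name no batch behind them. Fold changes are therefore given with condition as the only term and again with the library set as a second term. Of the A549 and epithelial markers, KRT8 (2558 to 3562 FPKM, fragments scaled for transcript length and library size), KRT18 (2011 to 2838), NQO1 and ALDH1A1 were high, while EPCAM was low at 0.18 to 0.52. CDKN2A, which is deleted in A549, had 0 counts in 5 libraries and 2 in Ctrl 2. The immune markers PTPRC and CD3E had 0 or 1 count in each library. With condition only, 0 of the 20 genes of the proliferation list (such as MKI67 and PCNA) passed the test, against 0.00589% of all tested genes. Their median log2 fold change was 0.09, and 17 of 20 were positive, against 57.5% of all tested genes. With the library set as a term, 0 passed adjustment and the median was -0.0057. In that fit 5 of the 20 had an edgeR unadjusted p under 0.05, all positive, against 11.6% of all tested genes.

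APEX1 (ENSG00000100823.11, chromosome 14, 20455191 to 20457772, plus strand, GRCh38) was measured first, since it checks the labels. Its CPM were 1272, 1185 and 1300 in APEX1-OE and 244, 243 and 214 in Ctrl, so that the groups were far apart in both library sets. The log2 fold change was 2.42 (SE 0.171, 95% interval 2.03 to 2.82, edgeR quasi-likelihood test, Benjamini-Hochberg adjusted p 0.00809). It was the single gene called among the 16971 tested, or 0.00589%. The adjusted p rose to 0.118 without APEX1-OE 2, 0.0674 without APEX1-OE 3, 0.210 without Ctrl 1 and 0.207 without Ctrl 2, with the fold change staying between 2.36 and 2.46 when any library was left out. Reads from the plasmid cDNA and from the chromosomal gene cannot be told apart in these counts.

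The levels of the 41 genes in A549 spanned from 0.142 to 90.4 FPKM, which is scaled for length, as means over 6 libraries. The sources used here do not give the length taken for each gene, and the order between genes depends on it. CHEK2 and RAD51D, for instance, had Ctrl means of 21.8 and 19.8 CPM but means of 7.73 and 1.57 FPKM over the 6 libraries. XRCC6, the Ku70 subunit that rings broken ends, was far above the rest at 90.4 FPKM (81.8, 93.6 and 95.7 in APEX1-OE; 90.1, 89.2 and 92.1 in Ctrl). XRCC5, its Ku80 partner, followed at 33.8 FPKM (18.9, 39.4 and 47.5; 27.4, 27.4 and 42.3) and H2AFX, the histone variant phosphorylated around breaks, at 32.4 (40.8, 30.9 and 25.6; 39.1, 34.3 and 23.7). PRKDC, the kinase that Ku recruits, had 15.5 FPKM (8.07, 21.1 and 19.5; 10.8, 11.3 and 22.5), and XRCC3, a homologous recombination factor, had 10.7 (15.1, 10.9 and 7.32; 12.2, 11.4 and 7.19). These were the 5 genes at 10 FPKM or more. XRCC6, XRCC5 and PRKDC, which together form the DNA-PK complex that starts end joining, were 3 of the 5, whereas the ligase LIG4, which ends it, had 0.935 FPKM.

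Next in order stood the checkpoint kinase CHEK2 at 7.73 FPKM and the Fanconi core subunit FANCG at 7.45. The Fanconi genes FANCF (4.93), FANCL (4.89), the ubiquitin ligase, and FANCI (4.87) then lay level with each other. RAD51C (4.14), NBN (3.69), NHEJ1 (2.85), RAD50 (2.72), TP53BP1 (2.45) and FANCA (2.10) came after them, and 12 genes from XRCC4 (1.91) to BRCA1 and FANCD2 (1.02 each) followed. Of the 41 genes, 13 had less than 1 FPKM, among them ATM, a central kinase of the response, at 0.542. On CPM, which is not scaled for length, the Ctrl mean of ATM was 9.85, above the 8.52 of CHEK1, which had 1.49 FPKM. The 5 lowest on FPKM were BLM, a helicase that dissolves recombination intermediates (0.338), BRIP1, the BRCA1-bound helicase (0.303), FANCB (0.215), FANCM, the translocase that anchors the core complex (0.167), and BRCA2 (0.142). The median over the 41 was 1.57 FPKM against 2.68 over all tested genes, and 14 of the 41 lay above that median. In this order 37 of the 40 neighbouring pairs overlapped in their ranges over libraries. The 3 gaps without overlap followed XRCC6, H2AFX and FANCG, so the rank of most genes is not resolved.

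**Figure D1:**
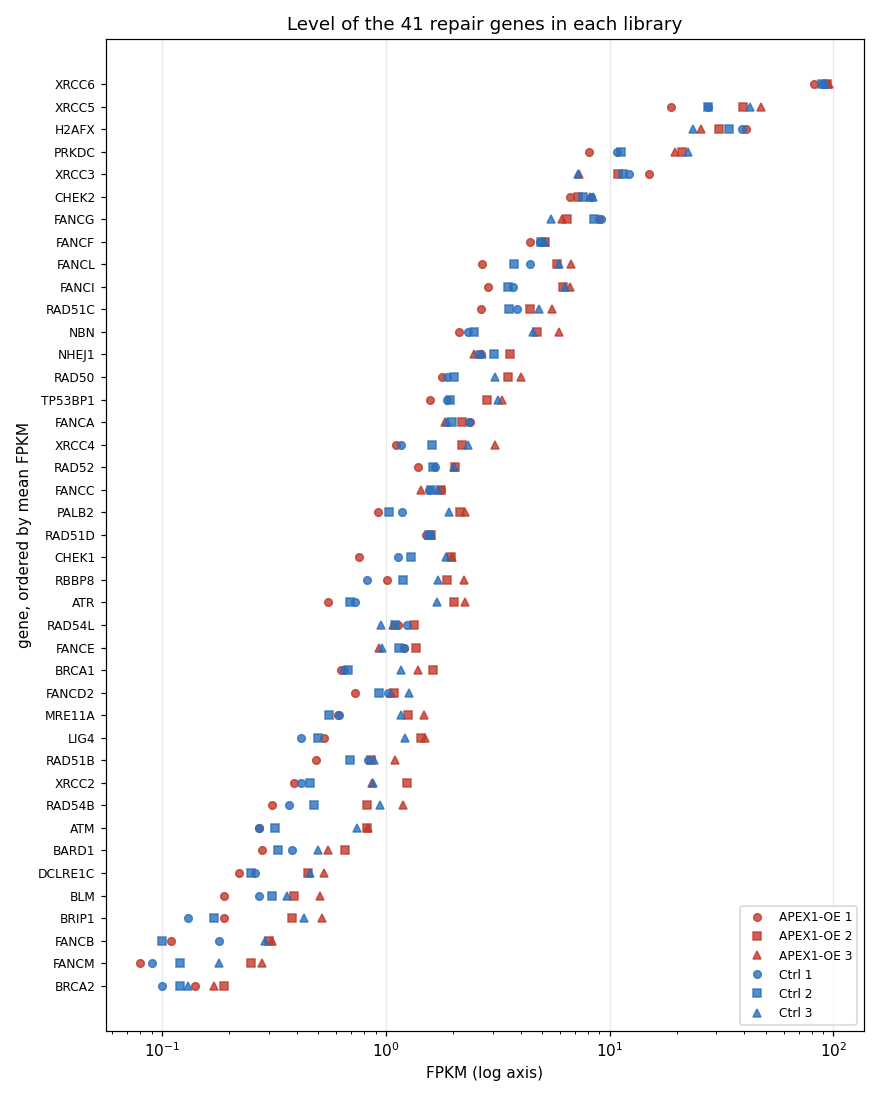
FPKM (log axis) of each of the 41 genes in each of the 6 libraries, ordered by the mean over libraries; red marks are APEX1-OE, blue marks Ctrl, and the shape is the replicate number. XRCC6 stands alone at the top near 90.4 FPKM and BRCA2 lowest at 0.142, and for many genes the spread between libraries of one group is as wide as the gap to several neighbours.

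Partner subunits were not at equal levels on FPKM. The FPKM of XRCC6 was 4.33, 2.37 and 2.02 times that of XRCC5 in APEX1-OE 1, 2 and 3, and 3.29, 3.25 and 2.18 times in Ctrl 1, 2 and 3. The ratio was higher in every set A library than in every set B library, in both groups. FANCI exceeded its partner FANCD2 in each library, by 3.62 to 6.29 times, and BRCA1 exceeded BARD1, with which it forms a ubiquitin ligase, by 1.71 to 2.53 times. The ratio of NBN to MRE11A stayed between 3.48 and 4.41.

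With condition as the only term, 0 of the 41 repair genes passed the test at an adjusted p under 0.05 (edgeR quasi-likelihood, Benjamini-Hochberg), against 0.00589% of all tested genes, and each of the 41 had an adjusted p of 1.0. Before adjustment, 0 of the 41 had p under 0.05, against 0.695% of all tested genes (118 genes). On the deposited FPKM, limma on log2(FPKM + 1) called 0 of the 34 repair genes with a mean of at least 0.5 FPKM, against 0.0073% of 13697 genes. The fold changes were small: they ran from -0.18 to 0.66 on the log2 scale, with a median of 0.12 against 0.03 over all tested genes and a median standard error of 0.319. The sign was positive for 34 of 41 (82.9%), against 57.5% of all tested genes. That share is higher than the background, but the genes share their library differences, and with the library set as a term it was 27 of 41 (65.9%), against 51.6%.

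The width of the intervals differed between the 2 fits. With condition only, each of the 41 intervals contained 0, the lowest bound of any gene was -0.86 and the highest 1.74, and 24 of 41 intervals lay within 2-fold in either direction. Thus a 2-fold decrease lay outside the interval of each of the 41 genes, and a 2-fold increase outside that of 24. With the library set as a term, the median standard error was 0.144, and all 41 intervals lay between -0.65 and 0.89, inside 2-fold in both directions. The sets were read from these same counts, so the standard errors and p-values of this fit may be too small and its intervals too narrow. In that fit 0 of the 41 passed adjustment (smallest adjusted p 0.364), against 0.0236% of tested genes, and 4 had an unadjusted p under 0.05, against 11.6% of tested genes (1973), so their number is not above the background. The 4 were BRCA2, XRCC3 and H2AFX, with positive fold changes, and PRKDC, with a negative one.

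**Figure D2:**
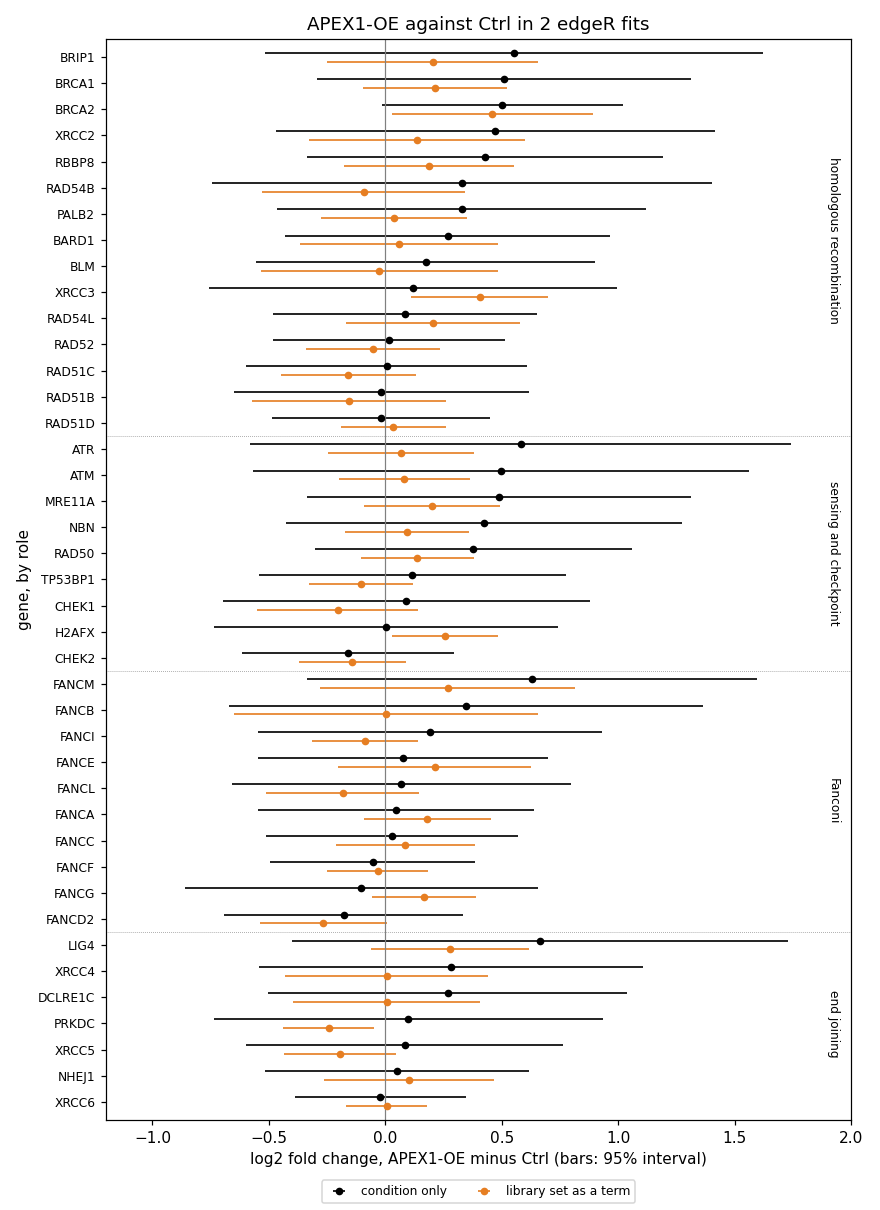
Log2 fold change of APEX1-OE over Ctrl for the 41 genes, ordered by role, with 95% intervals from edgeR with condition only (black) and with the library set as a second term (orange). Every black interval crosses 0, with medians of 0.12 (black) and 0.06 (orange) over the 41 genes, and the orange intervals of BRCA2, XRCC3, H2AFX and PRKDC are the 4 that do not cross 0.

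Among the 15 homologous recombination genes, the log2 fold change was positive for 13 and negative for 2, with a median of 0.27 with condition only and 0.06 with the library set as a term. BRCA2 (ENSG00000139618.14, chromosome 13, 32315086 to 32400268, plus strand), a mediator of strand exchange on resected DNA, came nearest to the unadjusted threshold. Its counts were 62, 113 and 88 in APEX1-OE and 41, 60 and 73 in Ctrl, or 2.35, 2.66 and 2.37 CPM against 1.53, 1.82 and 1.86. The groups did not overlap (2.46 ± 0.174 against 1.74 ± 0.183 CPM, SD, n = 3), and the lowest APEX1-OE library lay above the highest Ctrl library on FPKM as well. This gave a log2 fold change of 0.50 (SE 0.225, 95% interval -0.02 to 1.02, edgeR unadjusted p 0.0557, adjusted p 1.0). With the library set it was 0.46 (SE 0.202, edgeR unadjusted p 0.0389, adjusted p 0.408), and it was 0.48 within set A and 0.42 within set B. The GC and length offset without the set brought it down to 0.22. BRCA2 is also the least abundant of the 41 genes per length. Groups that do not overlap in CPM were seen for 2 of the 41, BRCA2 and CHEK2, against 3.39% of all tested genes (576).

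BRCA1 (ENSG00000012048.19, chromosome 17, 43044295 to 43170245, minus strand), which promotes resection and brings in PALB2 and BRCA2, had 6.80, 14.8 and 12.3 CPM in APEX1-OE and 6.47, 6.83 and 10.5 in Ctrl. APEX1-OE 1 lay among the Ctrl libraries and Ctrl 3 above it, so the groups overlapped. Its log2 fold change was 0.51 (SE 0.347, 95% interval -0.30 to 1.31) with condition only and 0.21 with the library set. BRIP1 (ENSG00000136492.8, chromosome 17, 61679139 to 61863559, minus strand) had 1.86, 3.18 and 4.17 CPM against 1.15, 1.58 and 3.52, a log2 fold change of 0.55 (SE 0.463, interval -0.52 to 1.62), and 0.20 with the library set. Its largest value was 3.62 times its smallest, the widest spread in CPM over libraries of the 41 genes.

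XRCC3 (ENSG00000126215.13, chromosome 14, 103697609 to 103715504, minus strand) varied in the other direction. It had 66.6, 40.8 and 26.6 CPM in APEX1-OE and 49.5, 47.2 and 26.6 in Ctrl, so that APEX1-OE 1 was highest and APEX1-OE 3 and Ctrl 3 were lowest and level. The groups overlapped and the log2 fold change was 0.12 (SE 0.379) with condition only. With the library set as a term it was 0.40 (SE 0.137, 95% interval 0.11 to 0.70, edgeR unadjusted p 0.0105, adjusted p 0.364), with 0.46 within set A and 0.31 within set B. Of its 7507 exon bases, 5756 also lie in exons of KLC1 on the opposite strand, and the sources used here do not give whether counting used the strand. With condition only and without APEX1-OE 1 the sign turned, to -0.30, and without Ctrl 3 to -0.12.

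The remaining recombination genes had log2 fold changes, with condition only and then with the library set, of 0.47 and 0.13 for XRCC2, 0.00 and -0.16 for RAD51C, -0.02 and -0.16 for RAD51B, and -0.02 and 0.03 for RAD51D, which act with XRCC3 in homologous recombination. In the same order of fits, PALB2, the bridge between BRCA1 and BRCA2, had 0.33 and 0.04, BARD1 0.27 and 0.06, and RBBP8, the CtIP resection factor, 0.43 and 0.19. RAD54B, a motor protein of strand exchange, turned from 0.33 to -0.09, its relative RAD54L had 0.08 and 0.20, the annealing protein RAD52 turned from 0.02 to -0.05, and BLM from 0.17 to -0.03. RAD51D was nearly flat, between 1.52 and 1.60 FPKM in all 6 libraries. BLM had 1.37, 2.40 and 3.01 CPM in APEX1-OE and 1.79, 2.09 and 2.17 in Ctrl, so that its lowest and highest values both came from APEX1-OE.

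The 9 sensing and checkpoint genes were positive in 8 cases and negative in 1, with a median log2 fold change of 0.38, and 0.08 with the library set as a term. ATR (ENSG00000175054.14, chromosome 3, 142449007 to 142578733, minus strand), the kinase that answers single-stranded DNA at stalled forks and resected ends, had 6.23, 19.3 and 21.0 CPM in APEX1-OE and 7.63, 7.32 and 16.2 in Ctrl. APEX1-OE 2, APEX1-OE 3 and Ctrl 3 were high, and APEX1-OE 1 was lowest of all. The means of 15.5 ± 8.10 and 10.4 ± 5.06 CPM (SD, n = 3) gave a log2 fold change of 0.58 (SE 0.502, 95% interval -0.58 to 1.74) with condition only. Adding the library set as a term brought it to 0.07, with -0.26 within set A and 0.31 within set B, so the sign differed between the sets.

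ATM (ENSG00000149311.17, chromosome 11, 108223044 to 108369102, plus strand), the kinase activated at double-strand breaks, had 6.91, 17.5 and 17.3 CPM in APEX1-OE and 6.29, 7.65 and 15.6 in Ctrl. The order of libraries was like that of ATR, with APEX1-OE 2, APEX1-OE 3 and Ctrl 3 high. Its log2 fold change was 0.50 (SE 0.460) with condition only and 0.08 with the library set. The 3 subunits of the end-binding nuclease complex ran in parallel: MRE11A had 6.38, 11.1 and 12.7 CPM against 5.91, 5.40 and 10.2, RAD50 had 20.5, 34.0 and 37.9 against 19.8, 21.6 and 29.7, and NBN had 14.2, 27.0 and 32.9 against 14.3, 15.5 and 25.5. Their log2 fold changes were 0.49, 0.38 and 0.42 with condition only, and 0.20, 0.14 and 0.09 with the library set.

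CHEK2 (ENSG00000183765.20, chromosome 22, 28687743 to 28742422, minus strand), the checkpoint kinase that ATM phosphorylates, was lower in each APEX1-OE library than in each Ctrl library on the CPM scale. It had 20.05, 18.4 and 20.2 CPM against 22.8, 21.4 and 21.3, with means of 19.5 ± 1.02 and 21.8 ± 0.863 (SD, n = 3). This gave a log2 fold change of -0.16 (SE 0.199, 95% interval -0.62 to 0.30, edgeR unadjusted p 0.442), and it was -0.14 within each library set. On the deposited FPKM (6.66, 7.21 and 8.17 against 8.26, 7.62 and 8.44) and on RLE-scaled CPM the groups overlapped. The annotation holds 7 pseudogenes named after CHEK2, so part of its reads may have been placed elsewhere or discarded as not unique. CHEK1, the kinase downstream of ATR, had a log2 fold change of 0.09 with condition only and -0.21 with the library set, and TP53BP1, which limits resection, had 0.12 and -0.11.

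H2AFX (ENSG00000188486.3, chromosome 11, 119093874 to 119095465, minus strand) had 90.7, 58.2 and 46.9 CPM in APEX1-OE and 79.9, 71.2 and 44.2 in Ctrl. The values sorted by library set and not by group, with APEX1-OE 1 and Ctrl 1 highest and Ctrl 3 and APEX1-OE 3 lowest. The means of 65.3 ± 22.8 and 65.1 ± 18.6 CPM (SD, n = 3) gave a log2 fold change of 0.00 (SE 0.319). Adding the library set as a term gave 0.26 (SE 0.106, 95% interval 0.03 to 0.48, edgeR unadjusted p 0.0290, adjusted p 0.389), and adding an offset for exon GC content and length brought this to 0.10 (edgeR unadjusted p 0.217).

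**Figure D3:**
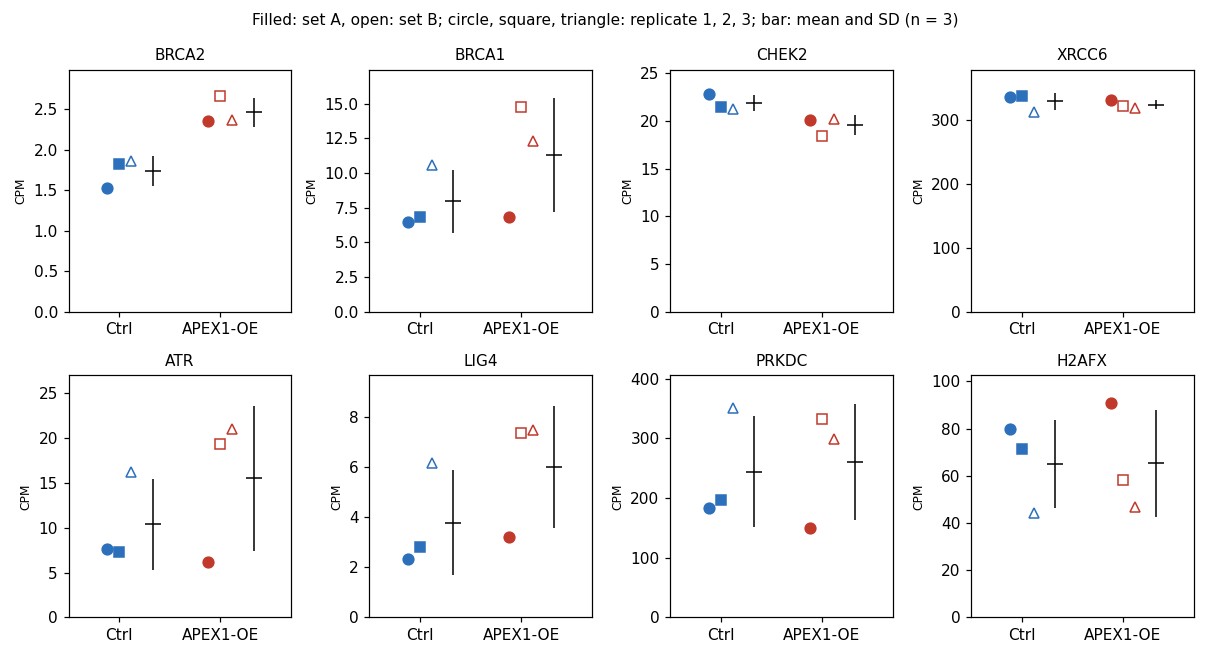
CPM of 8 repair genes in each library (linear axes from 0), with Ctrl in blue and APEX1-OE in red, filled marks for set A, open marks for set B, and bars for mean and SD (n = 3). BRCA2 and CHEK2 have groups that do not overlap, XRCC6 is level near 329 CPM, and in ATR, LIG4, PRKDC, BRCA1 and H2AFX the filled and open marks separate within each group.

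Of the 10 Fanconi genes, 7 were positive and 3 negative, with a median log2 fold change of 0.06 with condition only and 0.04 with the library set as a term. FANCM (ENSG00000187790.10, chromosome 14, 45135930 to 45200890, plus strand) had the highest value at 0.63 (SE 0.417, 95% interval -0.33 to 1.59) with condition only and 0.27 with the library set, from 0.835, 2.17 and 2.31 CPM in APEX1-OE and 0.818, 1.09 and 1.53 in Ctrl. It rests on 22 to 92 counts a library, and APEX1-OE 1 lay level with Ctrl 1. FANCB (ENSG00000181544.13, chromosome X), a core complex subunit, had 0.456, 1.06 and 1.08 CPM against 0.670, 0.395 and 0.993, a log2 fold change of 0.34 (SE 0.440) with condition only and 0.00 with the library set, on 12 to 45 counts a library.

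FANCD2 (ENSG00000144554.10, chromosome 3, 10026370 to 10101932, plus strand), the protein whose ubiquitination marks activation of the pathway, had the most negative fold change of the 41 in both fits. It had 7.97, 10.0 and 9.41 CPM in APEX1-OE and 10.1, 9.41 and 11.5 in Ctrl, so the groups overlapped. The log2 fold change was -0.18 (SE 0.224, 95% interval -0.69 to 0.33) and -0.27 with the library set (SE 0.128, interval -0.54 to 0.01, edgeR unadjusted p 0.0546), with -0.29 within set A and -0.25 within set B. Its partner FANCI had 0.19 and -0.09 in the 2 fits, so the pair differed in sign with condition only and shared it with the library set.

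FANCG (ENSG00000221829.9, chromosome 9, 35073835 to 35080004, minus strand) had 32.7, 19.8 and 18.2 CPM in APEX1-OE and 30.4, 28.7 and 16.7 in Ctrl, and its log2 fold change of -0.10 (SE 0.328) became 0.16 with the library set. FANCF (ENSG00000183161.4, chromosome 11, 22622533 to 22625823, minus strand), an adaptor of the core complex, was steady at 25.9, 25.6 and 24.6 against 26.4, 27.3 and 25.3 CPM, a log2 fold change of -0.05 (SE 0.192) and -0.03 in the 2 fits. The other subunits FANCA, FANCC and FANCE had 0.05, 0.03 and 0.08 with condition only and 0.18, 0.09 and 0.21 with the library set, and FANCL turned from 0.07 to -0.18.

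Of the 7 end-joining genes, 6 were positive and 1 negative, with a median log2 fold change of 0.10 with condition only and 0.01 with the library set. LIG4 (ENSG00000174405.13, chromosome 13, 108207439 to 108218368, minus strand), the ligase that seals the ends, had the largest fold change of the 41 with condition only, though not with the library set, where BRCA2 and XRCC3 were higher. It had 3.19, 7.35 and 7.45 CPM in APEX1-OE and 2.34, 2.82 and 6.16 in Ctrl, with means of 6.0 ± 2.43 and 3.78 ± 2.08 (SD, n = 3). In each set the APEX1-OE libraries were above the Ctrl libraries, yet Ctrl 3 was above APEX1-OE 1. The log2 fold change was 0.66 (SE 0.460, 95% interval -0.40 to 1.73, edgeR unadjusted p 0.188), and 0.28 with the library set (SE 0.159, interval -0.06 to 0.62, edgeR unadjusted p 0.103). XRCC4, the scaffold of LIG4, had 0.28 and 0.00 in the 2 fits, NHEJ1, which bridges the ends with it, 0.05 and 0.10, and the end-trimming nuclease DCLRE1C 0.27 and 0.01.

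PRKDC (ENSG00000253729.7, chromosome 8, minus strand), the catalytic subunit of DNA-PK, had 150, 333 and 299 CPM in APEX1-OE and 184, 196 and 351 in Ctrl. APEX1-OE 1 was the lowest library and Ctrl 3 the highest. With means of 261 ± 97.2 and 244 ± 92.8 CPM (SD, n = 3), the log2 fold change was 0.10 (SE 0.362) with condition only and turned to -0.24 with the library set (SE 0.0915, 95% interval -0.44 to -0.05, edgeR unadjusted p 0.0182, adjusted p 0.374). It was -0.34 within set A and -0.15 within set B. XRCC5 (ENSG00000079246.15, chromosome 2, 216107464 to 216206303, plus strand) behaved alike in sign, with 98.1, 173 and 202 CPM against 131, 133 and 184 and log2 fold changes of 0.08 (SE 0.294) and -0.19.

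XRCC6 (ENSG00000196419.12, chromosome 22, 41621163 to 41664048, plus strand) was the steadiest of the 41 genes on the CPM scale, though not on FPKM, where RAD51D and FANCF varied less. It had 332, 322 and 319 CPM in APEX1-OE and 336, 338 and 313 in Ctrl, and its largest value was 1.08 times its smallest. The log2 fold change was -0.02 (SE 0.160, 95% interval -0.39 to 0.34) and 0.01 with the library set, and neither fit placed a change of 2-fold inside its interval. The annotation holds 5 pseudogenes named after it. Among the 41 genes, 8 varied by less than 1.5 times in CPM over the libraries, namely XRCC6, FANCF, RAD51D, RAD52, CHEK2, FANCD2, RAD54L and NHEJ1, while 21 varied by more than 2 times.

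For most of the 41 genes, as for most tested genes, the 2 library sets differed more than the 2 groups. The difference of set means exceeded the group fold change in size for 38 of 41, with medians of 0.71 and 0.17 on the log2 scale, and for 14434 of all 16971 tested genes, with medians of 0.50 and 0.13. The sets were defined on these same counts, so a larger difference between sets is partly built in. Set B was higher for 29 genes and set A for 12, with a median of 0.61 in log2 CPM for B minus A, against 0.03 over all tested genes. Of the 41 genes, 7 were more than 2-fold apart, all higher in set B. Among all tested genes, 10.2% were apart by that much in either direction, and 1618 of those 1729 genes were also higher in set B. The largest ratios of set B over set A were 2.65 for ATR, 2.49 for LIG4, 2.41 for ATM, 2.34 for BRIP1 and 2.22 for RAD54B, and the largest of A over B were 1.75 for XRCC3, 1.68 for FANCG and 1.62 for H2AFX. By role, the median difference was 0.76 for end joining, 0.71 for sensing, 0.52 for recombination and 0.05 for the Fanconi genes. Set B supplied 2 of the 3 APEX1-OE libraries and 1 of the 3 Ctrl libraries.

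The differences between the sets followed the GC content of the exons. Of the 13 repair genes with exons under 40% GC, 13 were higher in set B, by a median of 0.99 in log2 CPM, against 0.88 over the 2465 tested genes of that class. Of the 21 between 40% and 50%, 15 were higher in set B, with a median of 0.61 against 0.39 over 6537 genes. Of the 7 at 50% or more, 1 was higher in set B, with a median of -0.37 against -0.43 over 7744 genes. Across the 41 genes, GC content and the set difference had a Pearson r of -0.850 and a Spearman rho of -0.798, beside -0.781 and -0.805 across 16746 tested genes with an annotation. Genes are not independent replicates and share the same 6 libraries, so these values are a description. The 41 genes are lower in GC than tested genes as a whole (median 42.1% against 48.8%) and longer (7876 against 4639 merged exon bases).

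**Figure D4:**
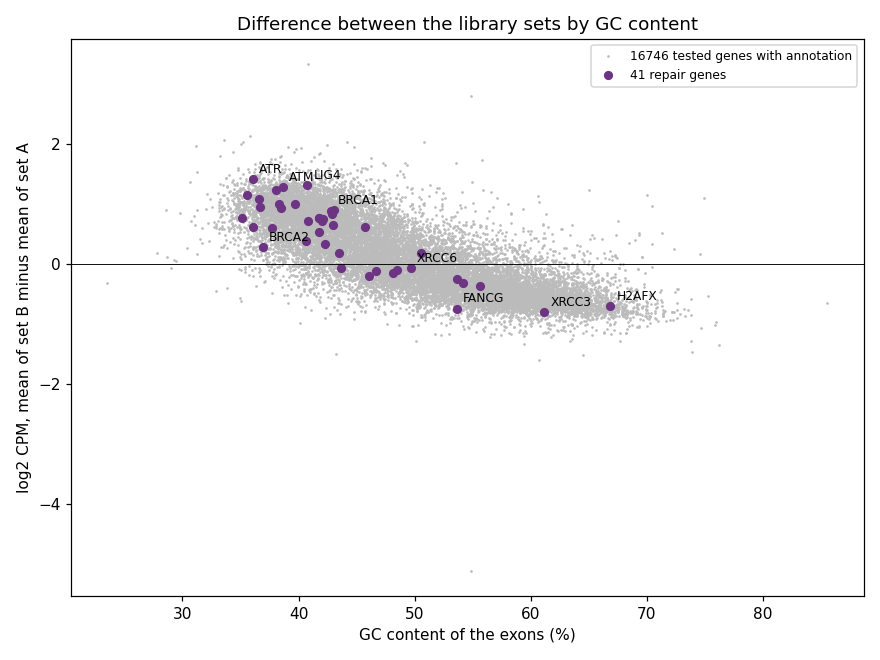
Difference in mean log2 CPM between set B and set A (vertical axis) against exon GC content in percent (horizontal axis) for 16746 tested genes (grey) and the 41 repair genes (purple). The repair genes lie within the grey band, from ATR at 1.41 and 36.1% GC down to XRCC3 at -0.81 and 61.2% GC, with XRCC6 near 0.

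The group fold changes carried the same order. With condition only, the median log2 fold change was 0.47 for the 13 genes under 40% GC (0.29 over all tested genes of that class), 0.09 for the 21 in the middle (0.07 over all) and 0.05 for the 7 at 50% or more (-0.02 over all). GC content and the fold change had r -0.581 and rho -0.690 across the 41 genes, and r 0.250 and rho 0.0632 once the library set was a term. When GC content and exon length entered as an offset instead of the set, the median fold change of the 41 was 0.02. What makes the libraries differ was not tested.

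**Figure D5:**
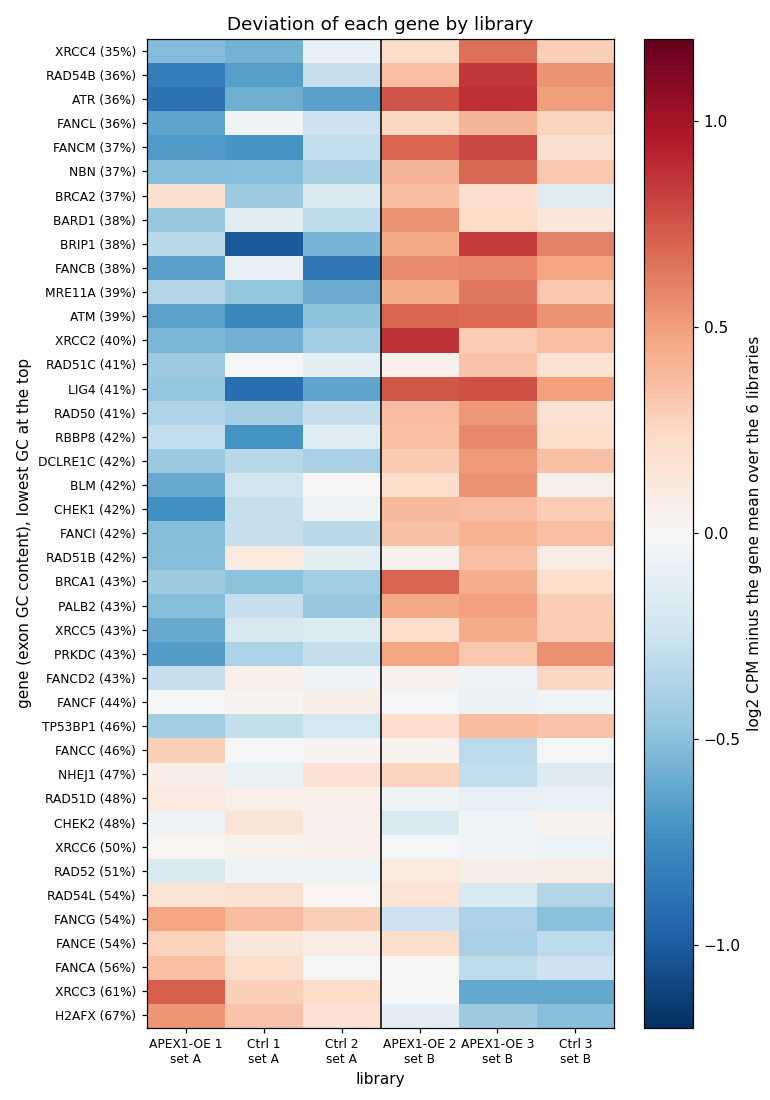
Deviation of each of the 41 genes from its own mean log2 CPM over the 6 libraries (colour, in log2 units), with genes sorted by exon GC content, lowest at the top, and libraries by set. Set A columns are blue and set B columns red for most genes under about 43% GC, and the colours turn over for the genes at the bottom such as XRCC3 and H2AFX. The median deviations of the 41 genes were -0.42, -0.21 and -0.16 in set A (APEX1-OE 1, Ctrl 1 and Ctrl 2) and 0.27, 0.37 and 0.21 in set B (APEX1-OE 2, APEX1-OE 3 and Ctrl 3).

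The count of genes under an unadjusted p of 0.05 depended on single libraries. It was 7 of 41 without APEX1-OE 1 (FANCM, MRE11A, LIG4, ATR, NBN, BRCA1 and RAD50, all higher), beside 7.61% of 17409 tested genes, and 3 without Ctrl 3 (MRE11A, LIG4 and BRIP1, all higher), beside 3.47% of 17150. Without APEX1-OE 1 both remaining APEX1-OE libraries lie in set B, and without Ctrl 3 both remaining Ctrl libraries lie in set A. It was 0 of 41 without any other library, and 0 of 41 passed adjustment with any library left out.

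A further 51 genes of the same pathways, from the RPA subunits to nucleases, Fanconi accessory factors and polymerases, were all tested. None of the 51 passed adjustment in either fit, 37 had positive and 14 negative fold changes, and their median log2 fold change was 0.09. With the library set as a term, 5 of the 51 had an unadjusted p under 0.05, all with positive values. This was against 11.6% of all tested genes (1461 of those 1973 positive), so in this fit their number is not above the background. POLQ, the polymerase of microhomology-mediated end joining, had 2.35, 5.27 and 4.73 CPM in APEX1-OE and 1.67, 1.79 and 3.72 in Ctrl, with a log2 fold change of 0.78 (SE 0.419) with condition only and 0.43 with the set (edgeR unadjusted p 0.0279, adjusted p 0.389). Also among them were FAAP20 (0.34, edgeR unadjusted p 0.00446, adjusted p 0.350) and FAAP100 (0.23), which belong to the Fanconi core, and ERCC1 (0.25), a nuclease subunit that unhooks crosslinks.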

How the data were processed

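Polyadenylated RNA of 6 A549 samples (3 APEX1-OE, 3 Ctrl) was sequenced as paired-end reads from a stranded kit. The authors trimmed the reads, aligned them to GRCh38 with TopHat2, and used uniquely mapped reads for the deposited counts per gene and the deposited FPKM values, which are scaled for length and depth. For the counting tool, annotation release and use of strand the sources used here give nothing. Counts were analysed with edgeR 4.0.16 (R 4.3.3): genes were kept by filterByExpr (minimum count 10, total 15), libraries scaled by TMM, and the robust quasi-likelihood test applied over 16971 genes with Benjamini-Hochberg adjustment and a threshold of 0.05. Log2 fold changes are APEX1-OE minus Ctrl with 95% intervals. FPKM were tested with limma 3.58.1 on log2(FPKM + 1) for genes of mean FPKM at least 0.5. The fit was also run on simulated counts, but these held no library sets, so that run does not show how the fit behaves on these libraries.

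The 41 genes, their roles, the other lists and the library sets were chosen with earlier results of these data known. Values in every library were given by rule for the 5 genes with the highest and the 5 with the lowest FPKM, the 5 most positive and the 5 most negative fold changes, genes with an unadjusted p under 0.05 in either fit or with groups that do not overlap, and the 3 with the largest difference between library sets in each direction. Those of the MRE11A-RAD50-NBN complex were added after their values were seen. Groups came from the labels. A few of the other pathway and marker genes are not reported here. Exon GC content and length came from GENCODE (GRCh38), in which 31231 of 32192 identifiers and all 41 genes were found. Of the 41, 28 share exon bases with another gene, 24 on the opposite strand and 11 on the same strand, some on both. A pseudogene is named after 8 of the 41, so the counts of these genes are uncertain to that extent. On the same strand, RAD50 shares 8124 of 10565 exon bases with another protein-coding gene, and RAD54B shares 3511 of 5319 with FSBP. FAAP100, FAAP24 and FAAP20 were matched through older symbols. Each pair of libraries differed by more than counting noise (lowest chi-square per degree of freedom 2.86). Alternatives were RLE and upper quartile scaling, other filters, DESeq2 1.42.0, limma-voom, other pseudocounts, each library left out, the replicate number as a block, the library set as a term, and an offset from a spline on GC content and length.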

Additional observations from a re-analysis of the deposited data

How the results depend on the processing

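The count of repair genes passing adjustment was 0 under each alternative run, and the median log2 fold change of the 41 stayed positive, between 0.02 and 0.36. The count with an unadjusted p under 0.05 was 0 with condition only, beside 0.695% of all tested genes, and 1 with no filter on low counts. It was 4 with the library set as a term (beside 11.6%), 2 with the GC and length offset (3.01%) and 6 with both (12.3%). When 1 library was left out it was 0 to 7, beside 0.383% to 7.61% of tested genes. Genes called over all tested (1 with condition only) numbered 10 with no filter, 4 with the library set, 20 with set and offset, and 0 to 1 with a library left out. The APEX1 log2 fold change then ran from 2.36 to 2.46, and on FPKM from 2.35 to 2.51 with 0 to 1 genes called. Repair genes with groups that do not overlap (2 on TMM-scaled CPM) numbered 1 on RLE-scaled CPM and 1 on the deposited FPKM, both alternatives chosen after seeing the data.

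Deviations of same-numbered libraries correlated at 0.607, -0.521 and 0.700, and APEX1-OE 1 correlated best with Ctrl 2 (0.636). Between the groups, correlations were positive within a library set and negative across the sets. They therefore do not show whether same-numbered samples were paired. With the replicate number as a block, 2 genes were called over all tested and 0 of the 41 passed adjustment. In that fit 3 of the 41 (LIG4, ATR and BRIP1, all higher) had an unadjusted p under 0.05, beside 3.31% of all tested genes.

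Of 288 values of 18 named repair genes under alternatives, 255 kept their sign and 33 reversed it, none called. With the library set, the GC and length offset and both, respectively, XRCC6 had 0.0056, 0.0176 and 0.0296, XRCC5 had -0.19, -0.0603 and -0.10, and PRKDC had -0.24, -0.0755 and -0.16. BLM had -0.0265 with the set and -0.0483 with the offset, FANCG 0.16 with the set and 0.12 with both, and FANCF 0.0543 with both. H2AFX had -0.0247 under upper quartile scaling, -0.00978 by voom and -0.00754 under the block. With each library left out, the ranges that crossed 0 were -0.32 to 0.19 for H2AFX, -0.30 to 0.38 for XRCC3, -0.12 to 0.46 for PRKDC, -0.14 to 0.32 for XRCC5, -0.42 to 0.0509 for FANCG and -0.0853 to 0.40 for BLM. The cause was not tested. With 3 libraries a group and a median standard error of 0.319, the interval with condition only lay within 2-fold in both directions for 24 of the 41 genes.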
